A study of Mus musculus with 24 samples.

Results

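The cytosolic ribosomal protein genes code for the protein parts of the large (60S) and small (40S) subunits of the ribosome that translates nuclear messages, and they were chosen here by gene symbol alone (*Rpl* and *Rps* genes, *Rplp0* to *Rplp2* and *Rpsa*). Of 19057 named genes on the Illumina MouseWG-6 v2 chip, 61 belonged to this group, with 91 of the 45281 probes. Of these, 55 genes with 77 probes lay above the median mean signal and were tested, namely 27 of the 60S subunit, 21 of the 40S subunit, 3 of the acidic stalk and 4 paralogs of a ribosomal protein gene. *Rpl14*, *Rpl17*, *Rpl6*, *Rps20*, *Rps23* and the paralog *Rpl39l* lay below that limit and were not tested. Another 23 reference genes of the same symbol pattern, among them *Rpl5*, *Rpl11*, *Rpl10*, *Rps27* and *Rps27a*, had no probe that carried their symbol and were not analysed here.

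The RNA came from the distal lung of female C57BL/6 mice aged 12.5 weeks, 6 per group. All 8 alveolar type 2 and all 7 type 1 markers looked up lay above the signal limit used here, but so did all 6 ciliated cell markers, 3 of 4 club cell markers and 5 of 6 cardiac muscle markers, so that these levels do not tell distal from other lung tissue. Bleomycin (BLM), an agent that breaks DNA and is used to model lung fibrosis, was given at 50 IE per dose under the skin, 3 times a week over 2 weeks, together with daily oral vehicle (Tween80, 2.5%, BLM group), EXT5 at 30 mg/kg or EXT9 at 30 mg/kg. Saline controls received saline and the same vehicle. The sample records list Tween80 at 2.5% for every group, the EXT groups included. EXT5 and EXT9 are code-named antagonists of serotonin receptors, and no group received either compound without BLM, so an effect of a compound outside BLM cannot be told apart from its effect under BLM.

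Ribosomal proteins are made in equal amounts and assemble with ribosomal RNA in the nucleolus, and their genes are among the most highly expressed of any cell. Their messages start with a run of pyrimidines through which mTORC1 controls their translation, so that the protein output can change while the message level does not. Free ribosomal proteins, above all those that carry the 5S RNA, bind Mdm2 and thereby stabilise p53. *Rps27l*, a close copy of *Rps27*, is itself a p53 target gene.

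The arrays fell into 2 runs with 1 sorted distribution of values each, 6 arrays in the first (3 saline, 3 BLM) and 18 in the second (3 saline, 3 BLM and all EXT arrays). The first run read higher by a median of 0.19 on the log2 scale in the ribosomal protein genes and 0.12 over all tested genes, from -0.08 for *Rpl30* to 0.76 for *Rps3a1*, and 40 of the 77 probes differed between runs, as did 8122 of all 22640 tested probes. The run was therefore a term of the fit (limma, Benjamini-Hochberg adjustment over all 22640 tested probes), and EXT arrays are set beside second-run saline and BLM arrays below. A gene stands for its brightest tested probe, and changes are log2 differences of array signal. Signal of 1 probe cannot be set against that of another, and in whole tissue fewer cells of a type and less RNA per cell cannot be told apart.

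Saline replicate 6, a second-run mouse, stood apart from the other 2 saline mice of that run in some cell markers. Its smooth muscle markers were at -0.73 relative to the saline mean, where replicates 2 and 4 were both at 0.37, its ciliated cell markers at -0.69 (others 0.37 and 0.31) and its T cell markers at 0.77 (others -0.61 and -0.19). Without it, *Rpl30* was at -0.54 with EXT5 and -0.52 with EXT9 against saline, *Rpl36a* at -0.45 with EXT9, and *Rps27l* at 0.29 and 0.31. All 11 calls of the group against saline described below held without this mouse. A further 6 genes were then called with EXT5 and 1 with EXT9. Replicate 2 stood apart in other lists, with endothelial markers at -0.91 (others 0.49 and 0.39) and mesothelial markers at -0.99 (others 0.14 and 0.86). Replicate 4 did so in cardiac muscle markers, at 1.80 (others -0.63 and -1.04). Without saline replicate 2, 1 of the 3 EXT5 calls and 4 of the 8 EXT9 calls against saline held. Without saline replicate 4, 2 and 4 of these held.

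The mean log2 signal of the 55 genes ran from 6.77 to 14.52, with a median of 13.01. Over all tested genes the median was 7.85 and the highest value 14.61, so many of the 55 lay near the top of the signal range. Whether signal so near the top narrowed their changes was not tested, so small changes here do not show a steadier group. Their spread between mice of a group was close to that of other genes, with a median residual SD of 0.111 against 0.118, from 0.062 for *Rpl3* to 0.190 for *Rpl7a*.

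On each array, the level of the group was taken as the median over the 55 genes of the log2 signal minus that gene's mean in saline mice of the same run. In the first run the 3 saline arrays lay from -0.010 to 0.031 and the 3 BLM arrays from -0.048 to -0.004. In the second run the saline arrays lay from -0.036 to 0.011, the BLM arrays from -0.087 to -0.048, the EXT5 arrays from -0.044 to 0.092 and the EXT9 arrays from -0.030 to 0.025. The BLM arrays were the lowest in the second run and did not overlap with the other groups there, whereas in the first run saline and BLM met. All of these distances were below 0.1 on the log2 scale. The same median over all tested genes stayed between -0.015 and 0.012 on every array. Quantile normalization gives the arrays of a run the same distribution of values, which largely fixes that median in advance. It is therefore no yardstick for the level of the group, and neither are the medians over all genes given below.

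**Figure D1:**
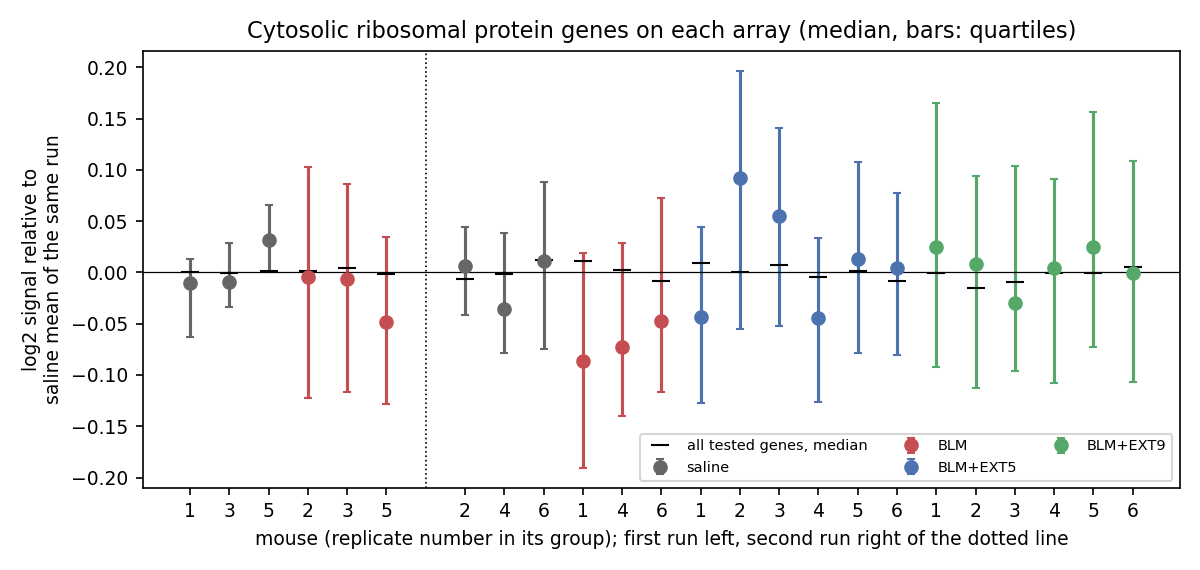
Level of the cytosolic ribosomal protein genes on each of the 24 arrays: median log2 signal relative to the saline mean of the same run (points; bars are quartiles over 55 genes), with the median of all tested genes as dashes. Points lie between -0.087 and 0.092, and within the second run the 3 BLM arrays are the lowest points.

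The first comparison asked what BLM changed in lung tissue. None of the 55 genes was called for BLM against saline (adjusted p under 0.05, limma), while 10 had an unadjusted p under 0.05 (1663 of the 12057 tested named genes), and over all tested genes 0.39% were called higher and 0.133% lower. The median change was -0.028 (all genes 0.00042), 36 genes lay below 0 and 19 above, and 54 of the 55 had a 95% confidence interval within 0.5 of 0 on either side. The 60S genes had a median of -0.073, with 21 of 27 below 0, and the 40S genes a median of -0.028, with 13 of 21 below 0.

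The lowest values with BLM belonged to *Rps3a1*, a protein of the 40S platform, at -0.31 (SE 0.10, adjusted p = 0.166), *Rpl4*, which lines the exit tunnel for the growing chain, at -0.22 (SE 0.061, adjusted p = 0.101), and *Rpl31*, at the tunnel's mouth, at -0.20 (SE 0.072, adjusted p = 0.232). The highest values were those of *Rps27l* at 0.21 (SE 0.060, adjusted p = 0.112), *Rpl3l* at 0.13 (adjusted p = 0.605) and *Rps12* at 0.11 (adjusted p = 0.518). None of these 6 passed the test. *Rps3a1* was called without saline replicate 6 (-0.37, adjusted p = 0.0417) and *Rpl4* without BLM replicate 2 (-0.26, adjusted p = 0.0374). The median change was -0.032 on first-run arrays alone and -0.055 on second-run arrays alone.

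*Rps3*, a 40S protein at the entry of the message channel, was read by 2 probes that differed, and was singled out after its values were seen. Its brighter probe was at -0.12 for BLM against saline (adjusted p = 0.330) and its dimmer probe (ILMN_2637639) at -0.43 (SE 0.089, adjusted p = 0.031). The dimmer probe read 12.12, 12.13 and 12.17 in first-run saline mice and 11.76, 11.83 and 11.86 in first-run BLM mice. In the second run it read 11.57, 11.62 and 11.76 in saline mice and 10.93, 11.22 and 11.22 in BLM mice. Saline and BLM mice did not overlap in either run on this probe. Ribosomal protein genes have many processed pseudogenes, and whether a probe also read such copies was not tested.

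The next comparisons asked how lungs of mice given BLM with EXT5 or EXT9 differed from saline controls. Both share the saline arrays, so their values stand side by side and are not independent. In these comparisons "with EXT5" and "with EXT9" mean BLM plus the compound. A difference from saline therefore holds BLM and the compound together, and their shares cannot be told apart in it. For EXT5 against saline, 2 of the 55 genes were called higher and 1 lower, where 6.93% and 6.86% of all tested genes were called, so the share of called ribosomal protein genes (3.64% and 1.82%) lay below that of all genes. For EXT9 against saline, 5 were called higher and 3 lower (9.09% and 5.45%, beside 9.97% and 9.37%). In the second run, EXT5 and saline mice did not overlap in 5.45% of the 55 genes (8.32% of all genes). For EXT9 and saline mice this share was 14.5% (9.98% of all genes). The medians were 0.014 and 0.012, next to 0.0013 and -0.0015 over all genes, and changes over 0.25 in size occurred in 4 and 7 of the 55 genes (7.27% and 12.7%, against 16.5% and 19.5% of all genes).

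The EXT calls against saline went both ways. *Rps27l* and *Rpl34* were called higher with both compounds, *Rpl19*, *Rps15* and *Rplp0* higher with EXT9, *Rpl30* lower with both, and *Rpl36a* and *Rpl28* lower with EXT9. Sequences around the annotated start of 6 of these genes are shown. They are given because the genes moved in opposite directions within a group whose promoters are known for shared features. RefSeq (GRCm38.p6) held a start for 51 of the 61 genes, and the first listed start was used. The window runs from 70 bases before to 30 bases after it, and capitals mark exact matches, on either strand, to CCGGAA (the core bound by ETS factors such as GABP), TATAAA (the TATA box), AAGATGGC (YY1) or CTCTTTC (a pyrimidine run). The motifs were chosen after promoters had been seen. 
Higher with EXT5 and EXT9:
*Rps27l* (chr9:66946016-66946115, plus strand): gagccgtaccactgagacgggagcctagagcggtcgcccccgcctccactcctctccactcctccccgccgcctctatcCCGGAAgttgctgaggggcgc
*Rpl34* (chr3:130730369-130730468, minus strand): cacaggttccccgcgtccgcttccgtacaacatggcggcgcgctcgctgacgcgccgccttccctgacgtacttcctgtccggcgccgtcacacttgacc
Higher with EXT9:
*Rpl19* (chr11:98026640-98026739, plus strand): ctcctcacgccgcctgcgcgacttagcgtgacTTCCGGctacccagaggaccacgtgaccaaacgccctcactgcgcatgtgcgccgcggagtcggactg
*Rps15* (chr10:80292361-80292460, plus strand): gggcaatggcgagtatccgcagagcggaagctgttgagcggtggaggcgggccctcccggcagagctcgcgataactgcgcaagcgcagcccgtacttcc
Lower with EXT9:
*Rpl36a* (chrX:134585584-134585683, plus strand): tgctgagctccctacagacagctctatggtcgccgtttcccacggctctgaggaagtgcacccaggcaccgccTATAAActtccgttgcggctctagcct
*Rpl28* (chr7:4792895-4792994, plus strand): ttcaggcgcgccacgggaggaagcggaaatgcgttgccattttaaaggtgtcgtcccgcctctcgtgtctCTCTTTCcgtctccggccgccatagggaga

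Over the whole 300-base entries, CCGGAA occurred in 26 of 51 ribosomal protein promoters (51.0%) and in 15.2% of all 27018 promoters. CTCTTTC occurred in 12 of 51 (23.5%, all promoters 8.0%), AAGATGGC in 3 (5.9%, all 2.9%) and TATAAA in 5 (9.8%, all 14.2%). None of the 4 strings, read on either strand, contains another. *Rps27l* and *Rpl19*, both called higher, carried CCGGAA, while *Rpl34* and *Rps15*, called higher as well, held none of the 4 in their entries. TATAAA stood in *Rpl36a*, called lower, and in *Rplp0*, called higher. These matches lay at +3 and +17, after the annotated start, and whether they act as a TATA box was not tested. A match is a description of the letters, and no match says only that these letters are not in the entry.

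*Rps27l*, the p53-responsive paralog, was called higher with both compounds. Its log2 signal was 12.12, 12.15 and 12.22 in first-run saline mice and 12.07, 12.15 and 12.31 in second-run saline mice. First-run BLM mice read 12.27, 12.39 and 12.59 and second-run BLM mice 12.26, 12.35 and 12.44. BLM was above saline in the first run without overlap, while 1 second-run saline mouse lay among the BLM mice. With EXT5 the 6 mice ranged from 12.34 to 12.61 (median 12.48), and with EXT9 from 12.33 to 12.59 (median 12.52). Every EXT-treated mouse was above the highest saline mouse of the same run. The change was 0.32 (SE 0.067, adjusted p = 0.00408, 1.25-fold) for EXT5 and 0.34 (SE 0.067, adjusted p = 0.00223, 1.26-fold) for EXT9 against saline. On second-run arrays alone the changes were 0.30 (adjusted p = 0.0313) and 0.31 (adjusted p = 0.0184). BLM against saline gave 0.26 on first-run arrays (adjusted p = 0.281) and 0.17 on second-run arrays (adjusted p = 0.833). Against BLM the values with EXT5 and EXT9 were 0.10 (95% confidence interval -0.03 to 0.24) and 0.12 (-0.02 to 0.26), neither of which passed the test, and EXT9 minus EXT5 was 0.017 (-0.11 to 0.14).

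Of the other p53 axis genes, 7 of a list of 10 were tested, and 4 were higher and none lower with BLM. *Cdkn1a*, the cell cycle inhibitor p21, rose by 1.51 (SE 0.13, adjusted p = 6.75e-07), *Phlda3*, an inhibitor of Akt, by 0.68 (adjusted p = 7.14e-06) and *Ccng1*, which codes for cyclin G1, by 0.78 (adjusted p = 0.00119). The list was chosen with earlier results of these data known. With EXT5 4 of the 7 were higher against saline, and with EXT9 5 were higher and 1 lower. Against BLM 1 of the 7 was lower with either compound, *Mdm2*, which codes for the ligase that degrades p53 (-0.42 with EXT5, adjusted p = 0.0264, and -0.44 with EXT9, adjusted p = 0.0162). *Rps27l* itself did not pass the test with BLM alone.

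*Rpl30*, a 60S protein that in yeast represses the splicing of its own message, was lower. First-run saline mice read 9.94, 10.06 and 10.09, second-run saline mice 9.79, 10.21 and 10.45, and second-run BLM mice read 9.78, 9.97 and 9.98. EXT5 mice ranged from 9.52 to 10.02 (median 9.66) and EXT9 mice from 9.49 to 9.84 (median 9.75). The lowest second-run saline mouse, again replicate 6, lay among both EXT groups, and the other 2 saline mice of that run were above all EXT mice. The change was -0.43 (SE 0.10, adjusted p = 0.0087) with EXT5 and -0.40 (SE 0.10, adjusted p = 0.0102) with EXT9 against saline. Without saline replicate 2 the values were -0.32 (adjusted p = 0.0572) and -0.30 (adjusted p = 0.0552) and the calls were lost, and on second-run arrays alone they were -0.45 (adjusted p = 0.049) and -0.42 (adjusted p = 0.0482). The second tested probe of *Rpl30* was called lower with EXT9 (-0.21, adjusted p = 0.0212) and read -0.10 with EXT5 (adjusted p = 0.315).

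*Rpl36a*, an X-linked 60S gene, was the 1 member called between EXT9 and EXT5. First-run saline mice read 12.63, 12.65 and 12.70, and first-run BLM mice, all lower, 12.35, 12.38 and 12.48. Second-run saline mice read 12.19, 12.26 and 12.48, and second-run BLM mice 12.16, 12.17 and 12.20. EXT5 mice ranged from 12.01 to 12.44 (median 12.25) and EXT9 mice from 11.79 to 12.09 (median 11.96). All 6 EXT9 mice were below every second-run saline and BLM mouse, whereas EXT5 mice lay among them, and the lowest EXT5 mouse (replicate 1) lay among the EXT9 mice. EXT9 was lower than saline by -0.40 (SE 0.071, adjusted p = 0.00094), and against BLM the value was -0.20 (SE 0.071, adjusted p = 0.0938). On second-run arrays alone the change against saline was -0.37 (adjusted p = 0.0197). *Rpl36al*, a near-identical copy of *Rpl36a* outside the symbol pattern, was at 0.062 for EXT9 against saline (adjusted p = 0.62). *Rpl28*, another 60S gene, was at -0.22 for EXT9 against saline (SE 0.057, adjusted p = 0.0116). Its EXT9 mice ranged from 12.80 to 12.96 (median 12.86), and second-run saline mice read 12.98, 13.08 and 13.19, without overlap. The adjusted p for *Rpl28* was 0.0509 without saline replicate 2 and 0.0666 on second-run arrays alone, and its second probe was at -0.073 (adjusted p = 0.416).

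*Rpl19* and *Rps15* were the members higher with EXT9 against both saline and BLM. *Rpl19*, a 60S protein that bridges to the small subunit, read 11.09, 11.16 and 11.54 in second-run saline mice, 11.07, 11.09 and 11.12 in second-run BLM mice, 11.30 to 11.90 with EXT5 (median 11.43) and 11.39 to 11.63 with EXT9 (median 11.57). All EXT mice were above the second-run BLM mice, and saline replicate 6 lay among the EXT mice. In the first run BLM mice read 11.35, 11.54 and 11.70 and saline mice 11.41, 11.48 and 11.50, levels like those of the EXT mice before the run was taken into account. With EXT9 the change of *Rpl19* was 0.33 against saline (SE 0.10, adjusted p = 0.0301) and 0.38 against BLM (SE 0.10, adjusted p = 0.0313). On second-run arrays alone the changes were 0.27 (adjusted p = 0.160) and 0.44 (adjusted p = 0.0509). Against saline the call was lost without saline replicate 2 or 4 or EXT9 replicate 3, 4 or 5, with values from 0.29 to 0.32 and adjusted p up to 0.0986. Against BLM it was lost without BLM replicate 1, 4 or 6 or EXT9 replicate 3, 4, 5 or 6, with values from 0.35 to 0.38 and adjusted p up to 0.104.

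*Rps15*, a 40S protein near the decoding site, read 11.90, 12.10 and 12.24 in second-run saline mice and 12.03, 12.05 and 12.14 in second-run BLM mice. In first-run saline mice it read 12.27, 12.39 and 12.56 before the run was taken into account. EXT5 mice ranged from 12.15 to 12.61 (median 12.29) and EXT9 mice from 12.23 to 12.51 (median 12.39). All EXT mice were above the second-run BLM mice, and the highest second-run saline mouse, replicate 6, lay among them. The change with EXT9 was 0.29 against saline (SE 0.084, adjusted p = 0.0226) and 0.32 against BLM (SE 0.084, adjusted p = 0.0316), and on second-run arrays alone 0.30 (adjusted p = 0.0741) and 0.31 (adjusted p = 0.102). Against saline the call was lost without saline replicate 4 (0.22, adjusted p = 0.106). Against BLM it was lost without BLM replicate 1, 4 or 6 or EXT9 replicate 3, 5 or 6, with values from 0.29 to 0.34 and adjusted p up to 0.0869.

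*Rpl34*, a 60S gene, and *Rplp0*, the base of the stalk that recruits elongation factors, completed the calls against saline. *Rpl34* read 12.44, 12.53 and 12.61 in second-run saline mice. It read 12.67 to 12.99 with EXT5 (median 12.75) and 12.62 to 12.87 with EXT9 (median 12.74), without overlap in that run. Before the run was taken into account, *Rpl34* read 12.84, 12.93 and 12.95 in first-run saline mice. Its changes were 0.22 (SE 0.061, adjusted p = 0.0223) and 0.18 (SE 0.061, adjusted p = 0.0444). The EXT5 call was lost without saline replicate 2 (adjusted p = 0.069) or 4 (adjusted p = 0.108), and the EXT9 call in 7 of the 12 fits without 1 mouse (saline replicate 2, 3 or 4, EXT9 replicate 1, 2, 5 or 6), with adjusted p up to 0.168. On second-run arrays alone the changes were 0.25 (adjusted p = 0.0547) and 0.21 (adjusted p = 0.0772). *Rplp0* was at 0.26 with EXT9 (SE 0.084, adjusted p = 0.0405). EXT9 mice, from 8.09 to 8.37, were above the second-run saline mice, which read 7.94, 8.05 and 8.06. In first-run saline mice *Rplp0* read 8.24, 8.28 and 8.29, among the EXT9 mice before the run was taken into account. Its call was lost in 7 of the 12 fits without 1 mouse (saline replicate 1, 3, 4 or 5, EXT9 replicate 3, 5 or 6), with adjusted p up to 0.0941, and its change on second-run arrays alone was 0.20 (adjusted p = 0.232). The other stalk genes, *Rplp1* and *Rplp2*, were not called in any comparison.

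**Figure D2:**
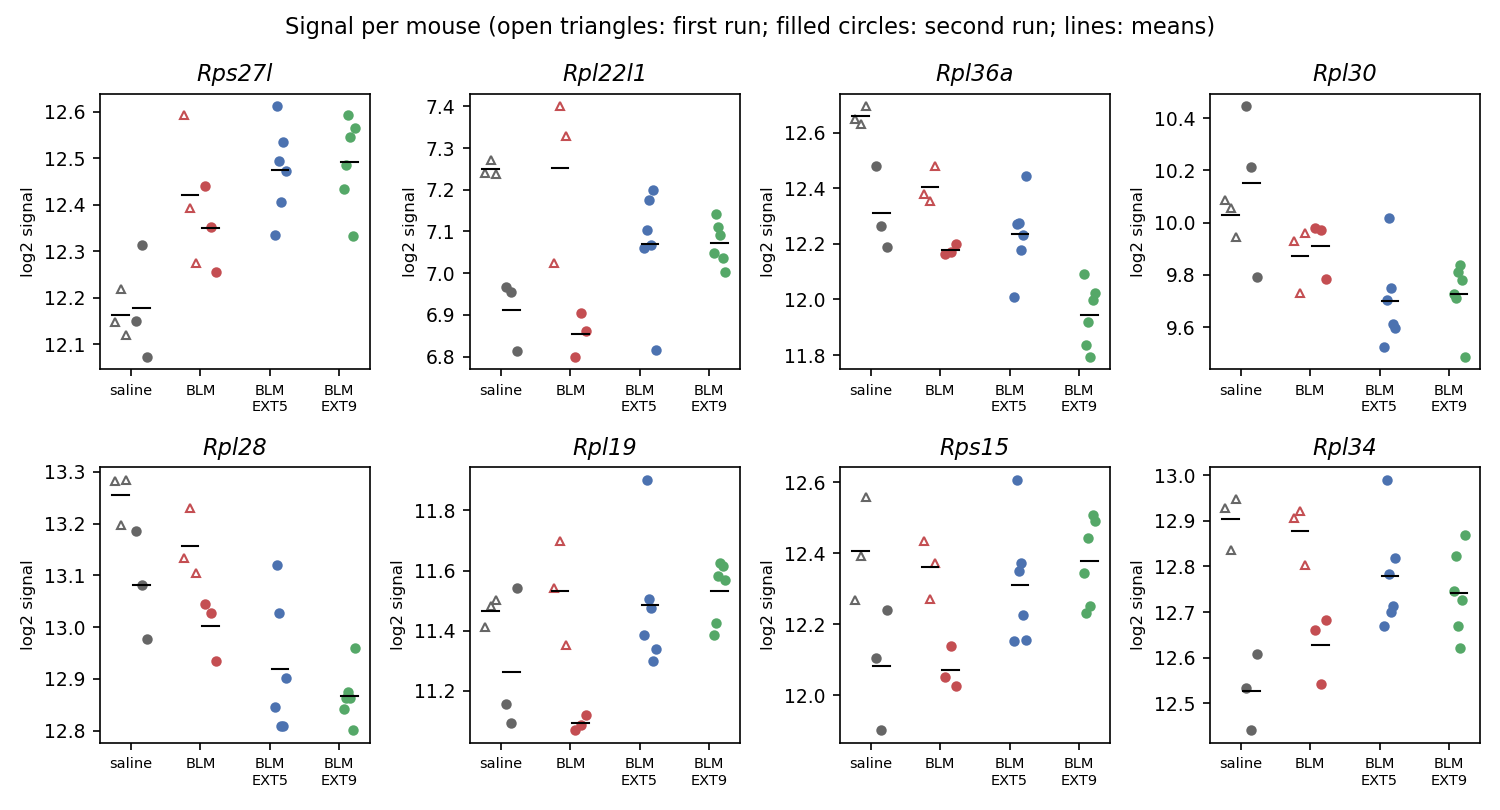
Log2 signal per mouse of *Rps27l*, *Rpl22l1* and the 6 other called genes with the smallest p, by group (6 mice each; open triangles first run, filled circles second run, lines are means of a run). *Rps27l* EXT mice lie at 12.33 or above, over the highest second-run saline mouse at 12.31, and *Rpl36a* EXT9 mice lie at 12.09 or below.

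The EXT groups were also set against BLM, which asks what each compound changed under BLM. For EXT5 against BLM none of the 55 genes was called by limma, while 10 had an unadjusted p under 0.05 (2849 of all 12057), and 2.76% of all genes were called higher and 2.53% lower. The 3 highest values were those of *Rpl19* (0.33, adjusted p = 0.0623), *Rps3a1* (0.30, adjusted p = 0.120) and *Rps15* (0.25, adjusted p = 0.0923), and the lowest those of *Rpl30* (-0.23, adjusted p = 0.198), *Rps4x* (-0.13) and *Rps6* (-0.11). For EXT9 against BLM 3 were called higher and none lower (5.45% and 0%), beside 3.39% and 2.47% of all genes. Next to *Rpl19* and *Rps15*, the third was *Rps3*, at 0.19 (SE 0.055, adjusted p = 0.0422), with EXT9 mice from 13.00 to 13.28 and second-run BLM mice at 12.94, 12.97 and 13.07, which overlap. The *Rps3* call was lost in 10 of the 12 fits that left out 1 mouse, all but those without BLM replicate 4 or EXT9 replicate 6, with adjusted p up to 0.132, and on second-run arrays alone (0.18, adjusted p = 0.118). The dimmer *Rps3* probe was higher with EXT5 against BLM (0.37, SE 0.099, adjusted p = 0.0385) and at 0.31 with EXT9 (adjusted p = 0.0724).

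The medians of the group were 0.051 for EXT5 and 0.046 for EXT9 against BLM, with 37 and 38 of the 55 genes above 0, while all genes had medians of -0.0025 and -0.006. Both comparisons share the BLM arrays, whose level was the lowest of the second run. In that run, EXT5 and BLM mice did not overlap in 7.27% of the 55 genes (12.1% of all genes). For EXT9 and BLM mice this share was 12.7% (12.9% of all genes). The 60S genes had medians of 0.037 and 0.046 and the 40S genes 0.050 and 0.039.

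EXT5 and EXT9 were compared at the same dose and time. This is 1 pair of compounds, tested over all probes. Of the 55 genes 1 was called, *Rpl36a*, lower with EXT9 by -0.29 (SE 0.063, 95% confidence interval -0.42 to -0.16, adjusted p = 0.0408), where 0.241% of all genes were called higher and 0.257% lower. The call was lost in 9 of the 12 fits that left out 1 mouse, all but those without EXT5 replicate 1 or EXT9 replicate 1 or 6, with adjusted p up to 0.0918, and on second-run arrays alone (adjusted p = 0.106), and the change stayed between -0.34 and -0.25 when 1 mouse was left out. The median over the 55 genes was 0.0013, and all 55 had a confidence interval within 0.5 of 0 on either side. The largest values in the other direction were those of *Rps4x* (0.19, adjusted p = 0.203), *Rpl9* (0.18, adjusted p = 0.267) and *Rps25* (0.13, adjusted p = 0.618). *Rps3a1* (-0.18) and *Rps16* (-0.17) did not pass the test either. A p above the threshold does not show that the compounds act alike.

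**Figure D3:**
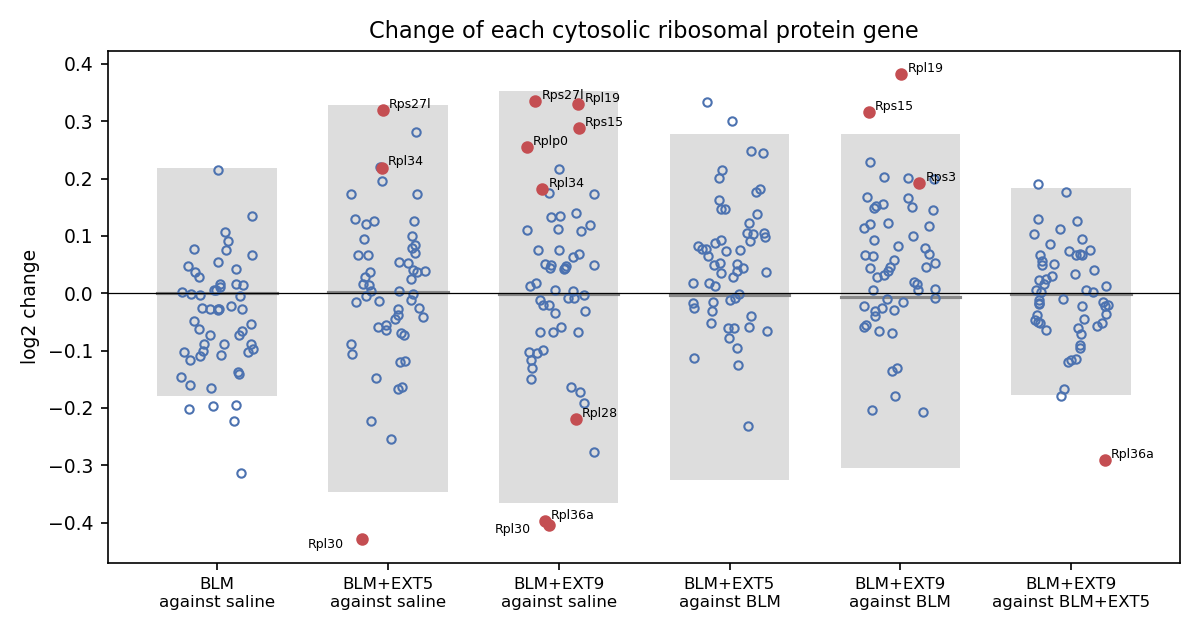
Log2 change of each of the 55 genes (points; red and named where adjusted p was under 0.05) in the 6 comparisons, over the range from the 5th to the 95th percentile of all 12057 tested genes (grey) and their median (line). Points crowd around 0 in each comparison, and the named points number 0, 3, 8, 0, 3 and 1.

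The paralogs were followed in every comparison. *Rpl22l1*, which can take the place of *Rpl22* in the 60S subunit, read 6.81, 6.96 and 6.97 in second-run saline mice and 6.80, 6.86 and 6.90 in second-run BLM mice. EXT5 mice ranged from 6.82 to 7.20 (median 7.09) and EXT9 mice from 7.00 to 7.14 (median 7.07). The EXT9 mice were above all saline and BLM mice of that run, and 1 EXT5 mouse lay among them. Its changes were 0.17 for both compounds against saline (adjusted p = 0.108 and 0.0814) and 0.20 for both against BLM (adjusted p = 0.0901 and 0.0814), none past the test. First-run saline mice read 7.24, 7.24 and 7.27, so that without the run term the changes against saline were -0.010 and -0.009. *Rpl22* itself was at -0.22 (adjusted p = 0.104) and -0.15 (adjusted p = 0.253) against saline.

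*Rpl3l*, which takes the place of *Rpl3* in striated muscle, was at 0.17 (adjusted p = 0.316) and 0.11 (adjusted p = 0.495) against saline with EXT5 and EXT9, and *Rpl3*, a protein of the peptidyl transferase centre, lay between -0.041 and 0.0064 in all comparisons. Cardiac muscle markers, 5 of which were tested, varied between arrays of a group by as much as from -1.18 to 2.01 in second-run BLM mice, and their part in the *Rpl3l* signal was not tested. *Rpl7l1*, a nucleolar relative of *Rpl7*, ran from -0.12 to 0.12, and *Rpl39* was at 0.18 and 0.17 against BLM (adjusted p = 0.127 and 0.142). *Rps6*, the target of S6 kinase, was at -0.25 and -0.28 against saline (adjusted p = 0.169 and 0.0987). *Rpsa*, known as the laminin receptor, was at 0.067 and 0.13 (adjusted p = 0.60 and 0.16). Its tested probe had the lowest mean log2 signal of the 55 genes, 6.77, next to the signal limit of 6.71. The probes of *Rpl22l1* (7.07) and *Rpl3l* (7.22) also lay near that limit.

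**Figure D4:**
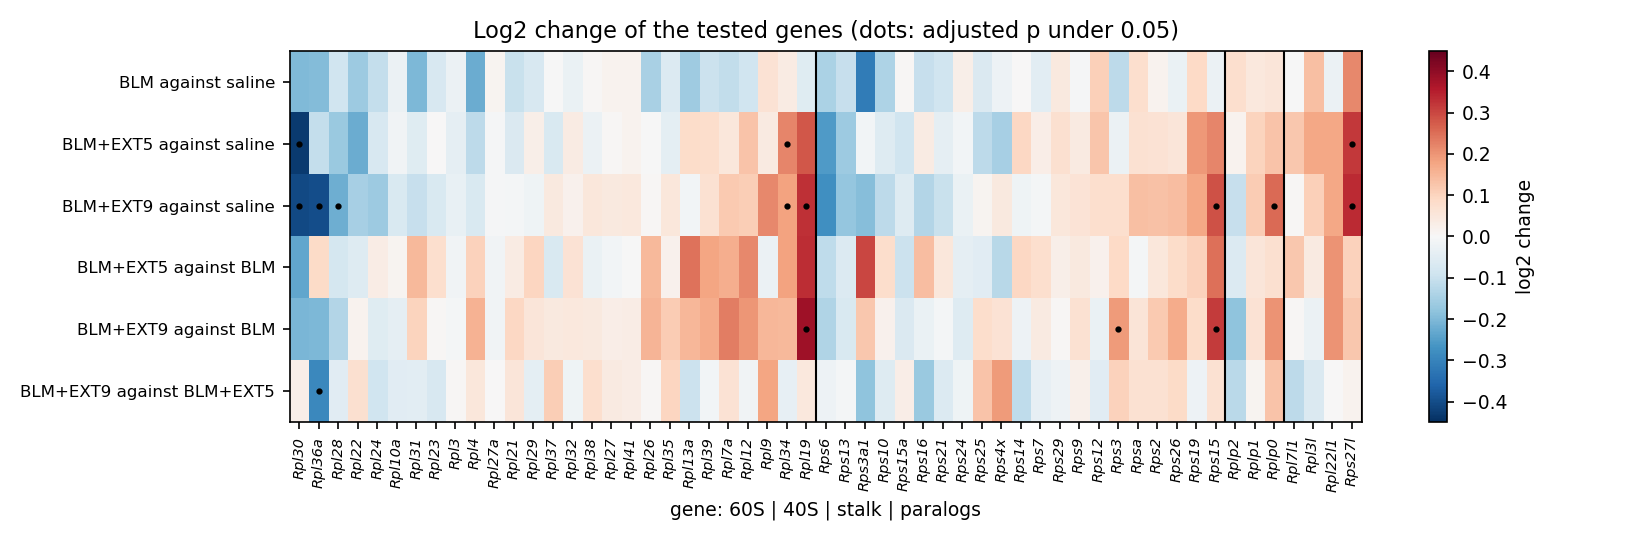
Log2 changes (colour) of the 55 genes, ordered by subunit and then by mean change, in the 6 comparisons; dots mark adjusted p under 0.05. *Rpl30* and *Rpl36a* at one end and *Rpl19* at the other frame the 60S genes, and *Rps27l* closes the paralogs at the right with 0.32 and 0.34 against saline.

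More than 1 probe was tested for 16 of the genes. No gene had probes called in opposite directions, but the probes of 5 to 10 of the 16 genes had changes on both sides of 0, depending on the comparison. Probes of 1 gene lay a median of 0.078 to 0.14 apart, at most 0.37 (*Rpl27a*, EXT9 against saline). Dimmer probes of *Rpl23*, *Rpl27a*, *Rpl30* and *Rps13* were called lower with EXT9 against saline, and those of *Rpl23* and *Rpl38* lower and higher with EXT5.

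Genes that build or regulate ribosomes are given beside the shares of all genes above, and nothing was tested between lists. Of the 68 tested ribosome biogenesis genes, 2 were higher with EXT5 and 5 with EXT9 against saline, and none was lower. *Eif6*, which keeps free 60S subunits apart from 40S, was higher by 0.30 (adjusted p = 0.0211) and 0.29 (adjusted p = 0.0184), *Mrto4*, which shapes the stalk site, by 0.28 (adjusted p = 0.0272) and 0.31 (adjusted p = 0.0123), and *Sbds*, which helps to release *Eif6*, by 0.24 with EXT9 (adjusted p = 0.0155). The mitochondrial ribosomal proteins, which serve the other ribosome of the cell, had 5 of 72 genes called with EXT5 (4 higher, 1 lower) and 8 with EXT9 (5 higher, 3 lower). *Mrpl20* was higher by 0.36 (adjusted p = 0.00139) and 0.42 (adjusted p = 0.000296), and *Mrps17* lower by -0.33 (adjusted p = 0.00539) and -0.31 (adjusted p = 0.00532). None of the biogenesis or mitochondrial genes was called with BLM alone, where 5 and 4 had an unadjusted p under 0.05. Of 22 tested mTORC1 and MYC regulators, 1 was lower with EXT5, and 1 was higher and 3 lower with EXT9, against saline. *Larp1*, which represses translation of pyrimidine-started messages, was lower with both (-0.20, adjusted p = 0.0288, and -0.29, adjusted p = 0.00291).

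Other translation genes have messages that start with pyrimidines as well. Of 19 tested, 1 was lower with EXT5, and 1 was higher and 1 lower with EXT9, while 2 were higher with EXT5 and 3 with EXT9 against BLM. *Eif4a2*, a helicase of initiation, was lower with EXT5 against saline (-0.31, adjusted p = 0.00921), and *Eif3f*, of eIF3, with EXT9 (-0.25, adjusted p = 0.0113). *Eif3k*, another subunit of eIF3, was higher with EXT5 and EXT9 than with BLM by 0.42 (adjusted p = 0.00914) and 0.36 (adjusted p = 0.0173). For BLM against saline it was at -0.32 (adjusted p = 0.0574) and was not called. These 3 values share the BLM arrays and are not independent. *Tpt1* was higher with EXT9 against saline by 0.34 (adjusted p = 0.000629) and against BLM by 0.23 (adjusted p = 0.0235). Of 23 other initiation genes, 3 were higher and 1 lower with EXT5, and 3 higher and 2 lower with EXT9, against saline. *Eif1b*, a relative of the start codon factor eIF1, was lower with EXT9 than with EXT5 by -0.35 (adjusted p = 0.0173).

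Markers of other lung cells moved in the same EXT arrays, and here too a difference from saline holds BLM and the compound together. The shares of all genes called against saline are those given above. Against saline, all 6 tested smooth muscle markers were lower with either compound (medians -0.90 and -0.80), 5 of 6 ciliated cell markers were lower (medians -0.66 and -0.56), and 5 and 4 of 8 alveolar type 2 markers were higher (medians 0.54 and 0.46), and 4 of 7 type 1 markers were higher with either (medians 0.56 and 0.45). Of 3 tested macrophage markers 2 were higher with either compound, *Mrc1* (1.02 and 0.85) and *Marco* (0.48 and 0.45). Of 3 erythroid markers 1 was higher with EXT5 and 2 with EXT9, among them *Alas2* (1.17 and 1.28). On second-run arrays, type 1 markers ran from -0.50 to 0.43 in saline mice and from 0.31 to 0.61 in BLM mice. They ran from 0.33 to 0.69 with EXT5 and from 0.21 to 0.64 with EXT9, so BLM mice without a compound lay among them. Erythroid markers ran from -0.70 to 0.53 in saline mice, 0.25 to 0.63 in BLM mice, 0.25 to 1.01 with EXT5 and 0.41 to 1.16 with EXT9. Of 6 fibroblast markers 2 were higher with either, *Col3a1* (0.76 and 0.52) and *Col1a2* (0.44 and 0.43), and 1 was lower with EXT9. The median level of the 6 fibroblast markers ran from -0.11 to 0.11 on second-run saline arrays. It ran from -0.22 to 0.16 with EXT5 and from -0.22 to -0.0081 with EXT9. No T cell, B cell, endothelial, mesothelial or cardiac muscle marker was called against saline, and 1 of 3 club cell markers was higher with EXT9. On the arrays, the smooth muscle markers ranged from -0.73 (replicate 6) to 0.37 in second-run saline mice, -0.24 to 0.038 in second-run BLM mice, -1.22 to -0.43 with EXT5 and -0.87 to -0.55 with EXT9. Type 2 markers ranged from -0.42 to 0.46 (replicate 6) in second-run saline mice, -0.073 to 0.15 in second-run BLM mice, 0.40 to 0.86 with EXT5 and 0.20 to 0.53 with EXT9. Ciliated cell markers ranged from -0.69 (replicate 6) to 0.37, -0.42 to 0.23, -1.01 to -0.33 and -0.68 to -0.37 in the same order. Saline replicate 6 thus lay among the EXT5 mice in all 3 lists. The part of these cell types in the changes of *Rps27l*, *Rpl30*, *Rpl36a* and the other called genes was not tested.

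Without the run term, as in the group comparison of the study's methods, the picture of the group differed. Against saline, 1 ribosomal protein gene was higher and 6 lower with EXT5 (all genes 4.42% and 13.2%), and 1 higher and 7 lower with EXT9 (6.78% and 18.7%). Against BLM, none was higher and 1 lower with EXT5 (1.1% and 7.75%), and 1 higher and 2 lower with EXT9 (1.66% and 9.11%). In that fit the medians against saline were -0.052 and -0.087. *Rps27l* and *Rpl30* stayed called with both compounds and *Rpl28* and *Rpl36a* with EXT9, as did *Rps3* with EXT9 against BLM. The other calls were lost. Against saline, *Rpl34* was at 0.063 with EXT5 and 0.026 with EXT9, *Rpl19* at 0.17, *Rps15* at 0.13 and *Rplp0* at 0.074 with EXT9. Against BLM, *Rpl19* was at 0.22 and *Rps15* at 0.16 with EXT9, and *Rpl36a* kept its value between EXT9 and EXT5 with an adjusted p of 0.230.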

How the data were processed

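Total RNA of distal lung was hybridised to Illumina MouseWG-6 v2 chips. The authors deposited quantile-normalized intensity values on a linear scale. The normalization software is not given in the sources used here. Log2 was taken with a pseudocount of 0. A deposited table of non-normalized signals (24 signal columns) has names that pair with no sample and was not used. Runs were inferred from the sorted values, and the deposited design text counts the re-measured samples differently. Probes above the median mean log2 signal (6.71) were kept, and symbols are those of GEO's platform annotation (34885 probes with 1 symbol, 18 with several, 10378 with none).

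Group means with a run term were fitted over 24 arrays with limma 3.58.1 in R 4.3.3, tested beforehand on simulated data, in place of the study's SAM analysis, which names no batch term. P-values were adjusted by Benjamini-Hochberg over the probes of a comparison, and 0.05 was the limit of a call. Promoter entries were read with pandas 2.3.3. The number of arrays limits the precision.

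Members, lists and the run term were chosen with earlier results of these data known. *Rps4l*, a pseudogene by its RefSeq biotype, was left out after its values had been seen. Named genes were the extremes among called members in each comparison (the 3 most extreme where fewer than 3 were called), fixed paralogs and genes with other roles, and the genes of smallest p in each related list. Array values were given for *Rps27l*, *Rpl22l1* and the 6 other called genes of smallest p, and those of *Rplp0* and *Rps3* were added after they were seen. Alternatives were no run term, single runs, median centring, joint quantile normalization, no filter, limma's trend and robust options, 2 groups only, a replicate block, the mean of a gene's probes, no displaced rows (203 probes, none of this group), *Rps4l* included, and each mouse left out.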

Additional observations from a re-analysis of the deposited data

Results flagged for a closer look

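Array values of called genes, *Rps3a1*, *Rpl22* and the level of the group were searched for single mice far from the other 5 of their group, after adjustment for run, in 52 sets of 6 mice. Chance alone marks about 1 in 20 such sets, and 4 were marked. *Rpl19* was at 11.54 in saline replicate 6, where the other saline mice lay from 11.09 to 11.18, and without this mouse its change with EXT9 against saline was 0.44 in place of 0.33. *Rpl19* was also at 11.90 in EXT5 replicate 2, above the other EXT5 mice at 11.30 to 11.51. *Rpl30* was at 9.49 in EXT9 replicate 6, below 9.71 to 9.84 in the others. *Rpl22l1* was at 6.82 in EXT5 replicate 6, below 7.06 to 7.20 in the others. The cause was not tested.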

How the results depend on the processing

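Of the 15 calls, 3 held in all 11 alternatives and in every fit without 1 mouse, namely *Rps27l* with EXT5 and EXT9 and *Rpl36a* with EXT9, each against saline. The alternatives were not equally strict. Counting *Rps4l* as a member used the main fit, so it could not change these calls, and leaving out displaced rows removed no probe of the group. Median centring, joint quantile normalization, leaving out displaced rows and counting *Rps4l* as a member (chosen after seeing the data) changed no count of called genes beyond 1.5 times. The mean correlation between same-numbered mice was -0.12 to 0.051 over the 6 numbers, with single pairs from -0.40 to 0.37. A mean over pairs cannot settle whether the numbers pair mice. With a replicate block EXT9 against BLM kept 1 of 3 calls, and EXT9 against EXT5 had 0, as it had with no run term, second-run arrays only, no filter on dim probes, trend and robust options, and 2 compared groups only.

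Counts moved as follows. With no run term, EXT5 had 7 called against saline and 1 against BLM, and medians of the group were -0.052 and -0.087 against saline and -0.052 and -0.030 against BLM, for EXT5 and EXT9. With second-run arrays only, EXT9 had 3 called against saline and 0 against BLM. With 2 compared groups only, EXT9 had 2 called against saline. With the mean of a gene's probes, BLM against saline and EXT5 against BLM each had 1 called (*Rps3*) and EXT5 against saline 5. With 1 mouse left out, calls ranged from 0 to 1 for BLM against saline, 1 to 9 for EXT5 against saline (1 without saline replicate 2, 9 without saline replicate 6), 4 to 9 for EXT9 against saline (4 without saline replicate 2 or 4), 0 to 1 for EXT5 against BLM, 0 to 2 for EXT9 against BLM and 0 to 1 for EXT9 against EXT5. The medians ranged from -0.057 to -0.021, 0.00084 to 0.025, 0.0067 to 0.033, 0.027 to 0.064, 0.035 to 0.062 and -0.011 to 0.024 in the same order.

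Named values that changed sign were uncalled in both fits. Without the run term these were *Rps3a1* for EXT5 against BLM (0.30 to -0.078), *Rpl22l1* (-0.010 with EXT5, -0.0090 with EXT9), *Rpl39* (-0.092 and -0.10) and *Rpl7l1* (-0.0019 with EXT9) against saline, and *Rpl22* (-0.093), *Rpl39* (-0.0060) and *Rpl7l1* (-0.00027) for EXT9 against BLM. First-run arrays gave BLM values of 0.0014 for *Rpl22l1*, 0.026 for *Rpl3* and 0.16 for *Rpl7l1*. Second-run arrays, like 2 compared groups, gave *Rpl7l1* -0.075 for EXT9 against saline, *Rpl3* 0.010 (EXT5) and 0.017 (EXT9) and *Rpl3l* 0.015 (EXT9) against BLM. The replicate block gave *Rpl7l1* -0.014 for EXT9 against saline and -0.012 against BLM, *Rpl3* 0.0010 and 0.0074 and *Rpl3l* 0.0079 against BLM, and *Rpsa* 0.0063 for EXT5 against BLM. The mean of a gene's probes gave *Rpl7l1* -0.064 for EXT9 against saline. The cause of these changes was not tested.

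With 1 mouse left out, *Rpl22* ranged from -0.031 to 0.067, *Rpl3* from -0.031 to 0.0040, *Rpl3l* from -0.11 to 0.022 and *Rpl7l1* from -0.030 to 0.025 for EXT9 against BLM. For EXT5 against BLM *Rpl3* ranged from -0.042 to 0.0016, *Rpl3l* from -0.041 to 0.081 and *Rpsa* from -0.032 to 0.018. For BLM against saline *Rpl22l1* ranged from -0.064 to 0.019 and *Rpl7l1* from -0.062 to 0.033, and for EXT9 against saline *Rpl7l1* from -0.026 to 0.055. For EXT9 against EXT5 *Rpl22l1* ranged from -0.050 to 0.027, *Rpl3* from -0.011 to 0.033, *Rpl39* from -0.039 to 0.030, *Rps27l* from -0.011 to 0.049 and *Rps6* from -0.079 to 0.085. The planned normalization of the non-normalized signals was not run, since its columns could not be paired with samples. Both EXT groups lie in the second run, so first-run arrays give no EXT value.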
